A study of Mus musculus with 3 samples.

Results

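Follicular and peripheral helper-like CD4 T cells were studied among live CD45+ cells sorted from the islets of adult female NOD mice, a strain that develops autoimmune diabetes without intervention. All 3 single-cell RNA libraries came from wild-type animals, each from islets pooled from several mice, so the series holds 1 group and no treated or control arm. The sort kept all leukocytes and applied no T-cell gate. The cells were chosen by transcripts they were measured to hold, counted as UMIs (unique molecular identifiers, 1 for each captured RNA molecule). A cell needed at least 1 UMI of Cd3d, Cd3e or Cd3g, 1 of Cd4, 1 of Pdcd1, which encodes PD-1, and 1 of Il21, Cxcr5 or Bcl6. It held no UMI of Cd8a, Cd8b1, Foxp3, Nt5e or Eomes and no more than 1 of Cd79a. This helper gate held 404 cells, 70 in replicate 1, 142 in replicate 2 and 192 in replicate 3, of 5738 Foxp3- CD4 T cells and 26142 cells kept from all leukocytes.

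Follicular helper T cells guide B cells through the germinal centre. BCL6 is the transcription factor that directs them, CXCR5 is the chemokine receptor that draws them into the B-cell follicle, and IL-21 is the cytokine through which they drive B-cell growth and antibody production. Peripheral helper T cells carry PD-1 and help B cells in inflamed tissue while lacking CXCR5. In NOD mice IL-21 is known as a cytokine that autoimmune diabetes depends on.

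The deposited counts summed to 33851381 UMIs in 5844 cell barcodes of replicate 1, 74775394 in 9537 barcodes of replicate 2 and 80806452 in 11566 barcodes of replicate 3. Replicate 1 was the shallowest, with a median of 4291 UMIs in a kept cell against 6522 and 5606.5, and the mitochondrial share of its gate cells was lower, at a median of 2.18% against 4.24% and 4.14%. The labels' descriptions name replicates 1 and 3 alike and replicate 2 apart, without saying that this marks a batch. The libraries shared 12, 18 and 29 cell barcodes pairwise, and 2 of the shared barcodes lay in the gate.

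The promoters of Il21 and Ifng, which encodes interferon-gamma, are shown because cells of the gate that held Il21 also held most of its Ifng, as described further on. Both are shown from RefSeq (GRCm38.p6), 250 bases before to 50 bases after the start, 5′ to 3′ on the gene's strand, at chr3:37232587-37232886 on the minus strand for Il21 and chr10:118440796-118441095 on the plus strand for Ifng. Capitals mark TGGAAA or its reverse complement TTTCCA, a core read by NFAT, the factor that antigen receptor signalling activates.
Il21: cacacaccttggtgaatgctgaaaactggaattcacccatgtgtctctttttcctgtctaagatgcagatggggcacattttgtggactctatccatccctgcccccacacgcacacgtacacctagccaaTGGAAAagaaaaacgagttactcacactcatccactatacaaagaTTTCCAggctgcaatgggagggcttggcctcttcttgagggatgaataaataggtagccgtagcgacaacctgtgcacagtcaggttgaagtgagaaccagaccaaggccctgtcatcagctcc
Ifng: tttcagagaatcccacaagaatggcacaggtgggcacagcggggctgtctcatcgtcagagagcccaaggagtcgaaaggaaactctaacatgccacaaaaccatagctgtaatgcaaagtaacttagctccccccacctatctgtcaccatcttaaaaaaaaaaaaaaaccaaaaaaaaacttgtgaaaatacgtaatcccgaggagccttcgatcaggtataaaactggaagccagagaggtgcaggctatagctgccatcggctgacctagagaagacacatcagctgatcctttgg
The Il21 window held 2 matches and the Ifng window 0, and 21.4% of 32851 promoters of this length held at least 1 match. The same windows of Prdm1 and Havcr2, also higher in those cells, held 0 matches. A match of 6 letters describes the sequence and no bound factor was measured.

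The gate took a mean of 7.29% ± 0.716 (SD, n = 3) of Foxp3- CD4 T cells. It took 8.08% in replicate 1, 7.09% in replicate 2 and 6.69% in replicate 3, with exact Clopper-Pearson 95% intervals of 6.36 to 10.1%, 6.0 to 8.30% and 5.80 to 7.67%. These intervals cover counting error only, and they overlap. Bcl6 alone let in 301 cells (74.5%), Il21 alone 31, Cxcr5 and Bcl6 together 30, and Cxcr5 alone 27. Il21 with Bcl6 let in 9, Il21 with Cxcr5 5, and all 3 genes 1. The gate was thus mostly a set of PD-1+Bcl6+ cells, in which 63 cells held Cxcr5 and 46 held Il21.

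Many cells stood at the edge of the rule. Just inside it, 226 cells held exactly 1 UMI of the 3 genes and 118 held exactly 1 UMI of Pdcd1. Just outside it, 648 PD-1+ cells met every other condition and held none of the 3 genes, and 237 cells failed only because of an Nt5e UMI. The Foxp3 condition alone kept out 87 cells, Cd79a 98, Eomes 98 and Cd8 49. At least 1 of the 3 genes was found in 38.4% of PD-1+ cells (404 of 1052) and in 18.5% of PD-1-negative cells (618 of 3335) that otherwise met the conditions.

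Deeper cells entered more often. The gate took 5.46% of cells with at least 4000 and under 6000 UMIs and 11.9% of cells with 8000 UMIs or more, and its median depth was 4557, 7016 and 5899.5 UMIs in replicates 1 to 3 against 3945, 5959 and 5214 in the other Foxp3- CD4 T cells. When every cell was thinned to 2000 UMIs, the gate took 3.96% ± 0.224 (SD, n = 3) of Foxp3- CD4 T cells. The part of depth in the differences below was not tested. In cells of 2000 to 6000 UMIs the comparison with the other Foxp3- CD4 T cells called 432 genes.

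**Figure D1:**
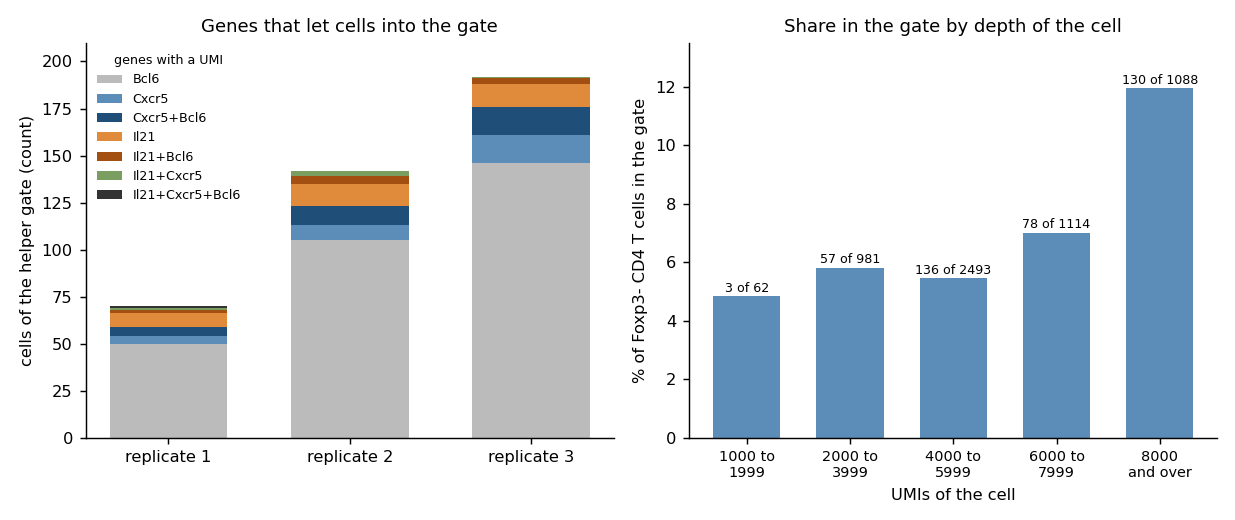
Left, cells of the helper gate (count) in each library, stacked by which of Il21, Cxcr5 and Bcl6 had a UMI; Bcl6 alone makes up most of each bar, 301 of 404 cells in all. Right, percent of Foxp3- CD4 T cells in the gate by the UMIs of the cell, all libraries together, with the counts above each bar; the share is 11.9% in the deepest cells.

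The genes of the rule are described here without a test, in CPM (counts per 1e6, the UMIs of a gene scaled by all UMIs of the summed cells). Pdcd1 stood at 389, 512 and 551 CPM in replicates 1 to 3, Bcl6 at 220, 189 and 191, Il21 at 39.6, 28.5 and 17.6, and Cxcr5 at 33, 25.2 and 27.5. Il21 was held by 11.4% of gate cells and by 0.0231% of B cells, which should lack it, at median depths of 6125.5 and 5644.5 UMIs. Bcl6 and Cxcr5 are also B-cell genes, and 12.7% of B cells held Bcl6.

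The label was checked on 12 helper markers that the rule did not use. Against the other Foxp3- CD4 T cells, Sh2d1a, Tox2, Maf, Cd200 and Tigit were higher, and Maf and Cd200 did not pass without replicate 2. These were 5 of 12 markers, of which Il4 and Ascl2 held too few UMIs to be tested, against 2.71% of all genes tested. With Il21 required in every helper cell, Sh2d1a (0.059), Tox2 (1.02) and Tigit (0.96) were not called, and with Il21 or Cxcr5 required Sh2d1a (0.39), Tigit (0.98) and Maf (0.57) were not. Icos, Slamf6, Btla, Cd40lg and Izumo1r were not called. The inducible costimulator Icos stood at 634, 667 and 803 CPM in the gate and 748, 514 and 539 in the other cells, and the groups overlapped (log2 fold change 0.17 ± 0.10 SE, adjusted p = 0.473, edgeR's quasi-likelihood test with Benjamini-Hochberg adjustment). It was called higher without replicate 1 (0.34, adjusted p = 0.0112) and in cells of 2000 to 6000 UMIs (0.45, adjusted p = 0.0450). Il4, the cytokine of mature follicular helper cells, had 4 UMIs in 3 gate cells, and Ascl2, a factor that induces Cxcr5, had 5 UMIs in 5 cells. Cxcl13, which human peripheral helper cells secrete, had 45 UMIs in 6 cells, 27 of them in 1 cell. Of the 5 higher markers, only Sh2d1a was also called higher against the PD-1+ cells without Il21, Cxcr5 or Bcl6. None of the 5 was called against the CD4 T cells with Nt5e and Izumo1r, and both comparisons are described further on. The markers met the label in part, and the set is called the helper gate here. UMIs of Cxcr5 and Il21 were found in a minority of its cells, though a cell without them may still express the genes.

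The first comparison asked how the gate differed from the 5334 other Foxp3- CD4 T cells of the same libraries. Of 9272 genes tested, 478 (5.16%) passed an adjusted p under 0.05, 251 (2.71%) higher and 227 (2.45%) lower in the gate. Of the follicular list 10 of 25 measured genes were higher and 2 lower, and of the lymph node retention, egress and memory list 11 of 14 were lower and none higher. The lists were chosen with earlier results of these data known, so their counts and medians are description and no independent check. UMIs were summed by library and set, and edgeR's quasi-likelihood test with a library term and Benjamini-Hochberg adjustment compared the sums. Adjusted p-values in the text come from it unless DESeq2, a second count model, is named. With plain library sizes in place of TMM scaling the split was 356 higher and 120 lower, and the median of all genes moved by 0.11 on the log2 scale, so that 74.8% of calls were higher against 52.5%.

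Sostdc1, a secreted antagonist of BMP and WNT signals, had the largest rise among called genes with at least 50 CPM in the gate and one direction in every library. The gene lies on chromosome 12 (36314139 to 36318452, plus strand, GRCm38). It stood at 242, 137 and 126 CPM in the gate of replicates 1 to 3 and at 35.3, 33.2 and 26.9 CPM in the other cells. Every gate value lay above every value of the other cells (log2 fold change 2.20 ± 0.13 SE, adjusted p = 6.04e-12). Its UMIs were spread unevenly over the gate: all 457 lay in 50 cells (12.4%), against 3.04% of the other cells and 0.139% of B cells. A cell with no UMI may still express the gene.

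The follicular list had a median log2 fold change of 0.40 against 0.00 over all genes tested, and 13 members were not called. Sh2d1a encodes SAP, the adaptor that follicular helper cells need to hold on to B cells. It stood at 513, 455 and 504 CPM against 356, 285 and 271, without overlap (log2 fold change 0.61 ± 0.09, adjusted p = 4.32e-05). Tox2, a factor that supports Bcl6, stood at 128, 52.9 and 42.3 CPM against 65.0, 22.6 and 20.0. Each library's gate value was above its own other cells, while the groups overlapped across libraries because replicate 1 was high in both (1.00 ± 0.14, adjusted p = 3.05e-05).

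Tigit, an inhibitory receptor that competes with CD226 for CD155, was higher in the gate (log2 fold change 1.12 ± 0.18, adjusted p = 0.000166). It stood at 52.8, 51.3 and 26.1 CPM in the gate and 29.2, 18.8 and 11 CPM in the other cells, so the lowest gate value, that of replicate 3, lay below the value of the other cells in replicate 1. Maf, which promotes Il21, was at 387, 408 and 324 CPM against 334, 234 and 216 (0.46 ± 0.09, adjusted p = 0.00298). Batf, the AP-1 factor of activated T cells, the inhibitory ligand Cd200, Tox, Gpm6b and the chemokine receptor Cxcr4 were also called, with log2 fold changes between 0.40 and 0.64. Id3, a brake on follicular helper fate, was lower at 2.20, 4.07 and 5.64 CPM against 16.9, 8.21 and 13.2, without overlap (-1.50 ± 0.37, adjusted p = 0.0124), and so was the interleukin 6 receptor Il6ra (-0.66 ± 0.19, adjusted p = 0.0406).

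Lrrc32 and Itgb8, described further below, were also among the largest rises (1.33 and 1.25). The others not yet named were Spock2 (1.44), a proteoglycan, Nrgn (1.29), Rnaset2b (1.20), Pakap (1.13), Cybb (1.10), a subunit of the phagocyte oxidase, and Coq8a (1.09). Of these, Nrgn did not pass without replicate 1 (1.07), nor Cybb under the cell filter of the study (1.05) or in the depth window (1.01). With Il21 required none of the 6 was called (0.93, 0.47, -0.17, 1.02, 0.56 and 0.18 in the order given), and with Il21 or Cxcr5 required Nrgn fell to 0.21 and of the 6 only Pakap was called. The largest falls beside those of the lymph node genes below were Cd55 (-1.55), which restrains complement, the integrin chain Itga6 (-1.41), Gpr18 (-1.39), the interferon-induced Gbp2 (-1.29), Kif23 (-1.23), the interferon-gamma receptor chain Ifngr2 (-1.22) and Tdrp (-1.21), and their calls stood without each library. Of 19 measured interferon response genes 4 were lower and none higher, and of 13 cell-cycle genes none passed.

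Not all calls of the follicular list stood without each library. Sostdc1, Sh2d1a, Tox2 and Tigit kept theirs. Without replicate 2, Batf, Maf, Cd200, Tox, Gpm6b and Cxcr4 did not pass, with log2 fold changes of 0.54, 0.32, 0.44, 0.39, 0.52 and 0.33, and without replicate 3 the last 4 did not either (0.36, 0.39, 0.41 and 0.25). Id3 did not pass without replicate 1 or 3 (-1.28 and -1.67), nor Il6ra without any one of them (-0.62, -0.90 and -0.49). Under the cell filter of the study Batf was at 0.18, and Batf, Gpm6b, Id3 and Il6ra were not called, and DESeq2 did not call Gpm6b, Cxcr4 or Il6ra.

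The lymph node retention, egress and memory list had a median log2 fold change of -0.75, against 0.00 over all genes tested. LEF1 is a factor of naive and memory T cells. Lef1 stood at 77.0, 129 and 97.3 CPM in the gate and 148, 364 and 386 in the other cells, without overlap (-1.73 ± 0.13, adjusted p = 2.27e-09). Il7r, the receptor for the survival cytokine IL-7, stood at 191, 207 and 236 CPM against 355, 472 and 495, also without overlap (-1.18 ± 0.10, adjusted p = 8.37e-09). Both were lower in the gate of every library, and replicate 1 had the lowest Lef1 value of the other cells.

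The genes that move T cells through lymph nodes fell with them. Klf2, the factor that switches on exit genes, was at 103, 202 and 251 CPM against 314, 498 and 464 (-1.30 ± 0.11, adjusted p = 6.06e-09), and its target S1pr1, the receptor for the exit signal, had a log2 fold change of -0.88 ± 0.10 (adjusted p = 8.22e-07). Ccr7, which holds T cells in the T-cell zone, had -0.59 ± 0.09 (adjusted p = 5.66e-05). Satb1, Foxp1 and Bach2, factors of quiescent T cells, had -1.14, -0.63 and -0.84. The groups did not overlap for Klf2, S1pr1, Ccr7 and Satb1, and they overlapped for Foxp1 and Bach2. All these genes kept their calls without each library in turn. Of 87 ribosomal protein genes, 20 were lower and none higher.

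**Figure D2:**
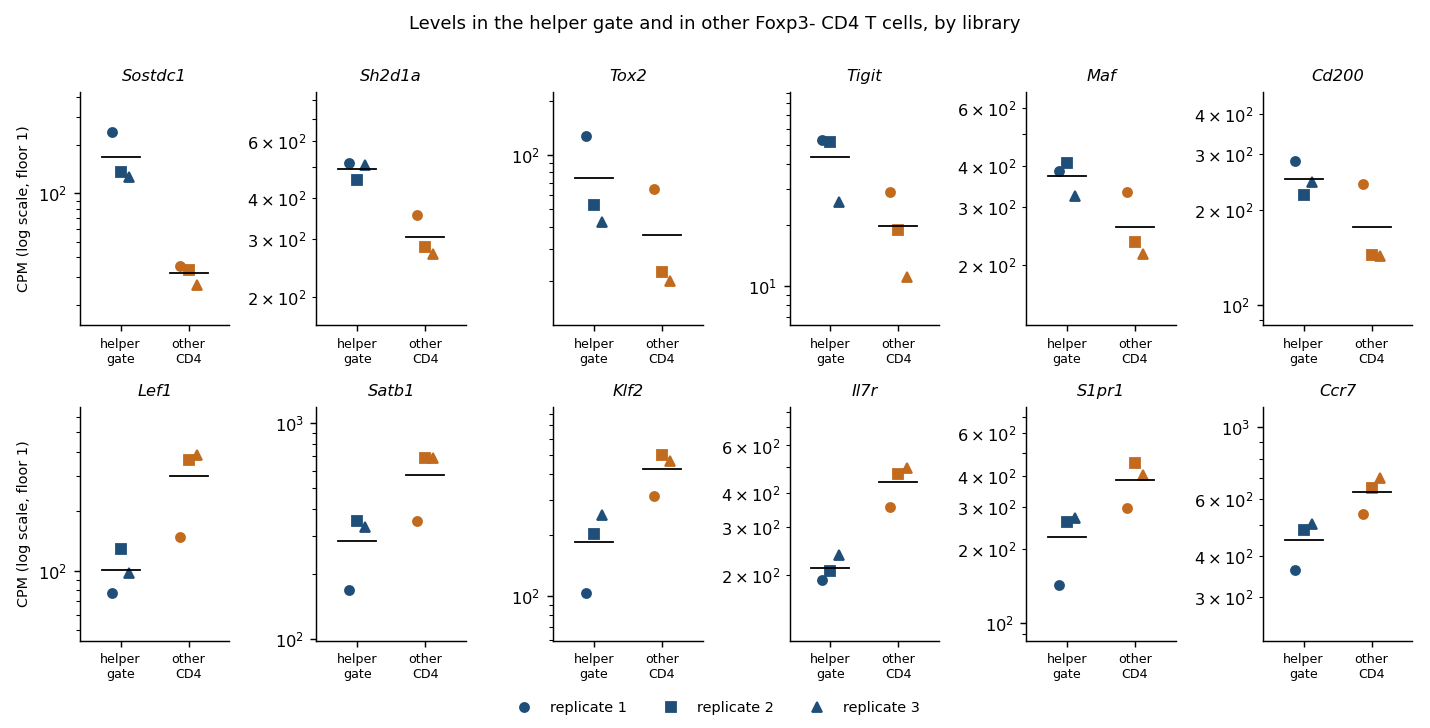
Level (CPM, log axis) of 6 follicular programme genes and 6 lymph node retention and egress genes in the helper gate (blue) and the other Foxp3- CD4 T cells (orange); each symbol is 1 of the 3 libraries and the bar is their mean. Sostdc1 separates the sets by most among the top row, and Lef1, Klf2 and Il7r are lower in the gate of every library.

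Shares of cells after thinning to 2000 UMIs had the same direction as the fold changes for Sh2d1a, Sostdc1 and Klf2, but not for every called gene. Sh2d1a was found in 48.4% of thinned gate cells and 33.1% of thinned other cells, Sostdc1 in 9.5% and 2.40%, and Klf2 in 24.2% and 45.4%. Unthinned, the differences were 19.6 points for Sh2d1a, 9.33 for Sostdc1 and -19.6 for Klf2. Ccl5, lower by its summed UMIs as given below, was found in 18.9% of thinned gate cells and 16.5% of other cells, and Ccl4, higher by its sum, in 1.23% and 1.55%. For Id3 the share was higher in the gate in 2 of 3 libraries. Each of the first 3 differences had one sign in all 3 libraries, which is the most that 3 pairs can show: the exact permutation test that flips signs gave p = 0.25, its smallest value. For Icos and Maf 2 of 3 libraries were higher (exact p = 0.5). Thinning left out 3 gate cells and 59 other cells.

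Effector genes moved in both directions. Of 20 Th1 and cytotoxic genes 5 were higher and 4 lower, with a median log2 fold change of -0.02. The chemokine receptor Cxcr3 was at 108, 100 and 136 CPM against 84.5, 75.9 and 77.6, without overlap (0.45 ± 0.11, adjusted p = 0.0166), and Stat4, which carries the IL-12 signal, had 0.38 ± 0.10 (adjusted p = 0.0224). Ifng had 0.72 ± 0.17 (adjusted p = 0.00819). Neither Cxcr3 nor Stat4 passed by DESeq2 (0.45 and 0.38), without replicate 2 (0.53 and 0.33) or without replicate 3 (0.29 and 0.21). Ifng did not pass without replicate 1 or without replicate 2 (0.80 and 0.34) or by DESeq2 (0.70, adjusted p = 0.0716). Nor did it pass under the cell filter of the study (0.53) or in the depth window (0.43).

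Among those 20 genes, Ccl4 had the largest fold change (2.80 ± 0.41, adjusted p = 4.70e-05), yet 914 of its 1055 UMIs in the gate came from 1 cell of replicate 2. It was not called by DESeq2 (1.91, adjusted p = 0.876), under the cell filter of the study (1.13) or in the depth window (0.52). The chemokine Ccl5 and the granule genes Nkg7 and Gzmb were lower (-0.97, -0.44 and -1.51), as was the interleukin 18 receptor Il18r1 (-0.54). DESeq2 called neither Ccl5, Nkg7 nor Il18r1 (-1.11, -0.44 and -0.58), and the cell filter of the study and the depth window left Nkg7, Gzmb and Il18r1 without a call. With Il21 required Nkg7 turned to 0.83 and was called higher (adjusted p = 0.0448). Il18r1 did not pass without replicate 1 (-0.42), nor Nkg7 (-0.38 and -0.32) and Gzmb (-1.33 and -1.19) without replicate 1 or 3. The calls of Ccl5, Nkg7 and Gzmb also changed with the comparator. When the other cells were also required to lack Nt5e and Eomes, as the gate does, Ccl5 was at -0.02 and Nkg7 at 0.21, and neither they nor Gzmb (-1.26) passed. That comparator called 848 genes, and 451 of the 478 genes were among them. Lef1, Il7r, Klf2, S1pr1, Ccr7, Satb1, Foxp1 and Bach2 were called lower with either comparator.

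Genes that follow antigen receptor signals gave 4 higher and 1 lower of 18 measured. Nr4a3, an early target of the receptor, stood at 312, 205 and 149 CPM against 177, 94.2 and 95.3 (0.77 ± 0.10, adjusted p = 1.44e-05). It was higher in each library, and the groups overlapped through replicate 1 of the other cells. The TNF receptors Tnfrsf9 (4-1BB) and Tnfrsf4 (OX40) had 0.75 ± 0.11 and 0.40 ± 0.09, and Nfatc1 had 0.55 ± 0.10. Tnfrsf4 did not pass without replicate 2 or 3 (0.34 each), nor Nfatc1 without replicate 3 (0.43) or under the cell filter of the study (0.58). With Il21 required Tnfrsf9 was at 0.02, Nr4a3 at 0.37 and Nfatc1 at 0.58, and with Il21 or Cxcr5 required they were at 0.54, 0.65 and 0.45, none of them called.

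Some genes linked to regulatory T cells were also higher, in cells selected to lack Foxp3 transcripts. Of 12 measured members 4 were higher, 8 not called and none lower, among them Tnfrsf4, which the antigen receptor list also holds. Ikzf2, the factor Helios, stood at 398, 339 and 307 CPM against 309, 142 and 140 (0.85 ± 0.11, adjusted p = 6.95e-06), with replicate 3 of the gate just below replicate 1 of the other cells. Lrrc32, which docks latent TGF-beta on the cell surface, was at 57.2, 53.7 and 52.2 CPM against 31.3, 15.9 and 18.8, without overlap (1.33 ± 0.17, adjusted p = 8.61e-06), and Itgb8, a chain of the integrin that activates it, had 1.25 ± 0.19 (adjusted p = 7.85e-05). Without replicate 2, Itgb8 had 0.82 and did not pass. With Il21 required Ikzf2 (0.23), Lrrc32 (-1.51) and Itgb8 (0.18) were not called, nor with Il21 or Cxcr5 required (0.35, -0.14 and 0.80). Lrrc32 lay in 63 gate cells and only 2 of the 46 cells with Il21. Against the PD-1+ cells without Il21, Cxcr5 or Bcl6, described next, only Itgb8 of 12 measured members was higher and Il2rb was lower. Against the CD4 T cells with Nt5e and Izumo1r, described further on, none of 12 measured members was called.

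The second comparison asked for a Pdcd1 UMI in both sets and set the gate against the 648 PD-1+ cells that met every condition except the 3 genes. The level of Pdcd1 was not matched between the sets. The gate cells were also deeper, at medians of 4557, 7016 and 5899.5 UMIs in replicates 1 to 3 against 3412, 5653.5 and 5215. Of 7900 genes tested 177 (2.24%) passed, 84 (1.06%) higher and 93 (1.18%) lower in the gate. Of the follicular list, 2 of 22 members were higher and none lower, with a median log2 fold change of 0.10 against 0.01 over all genes. Sostdc1 stood at 242, 137 and 126 CPM against 10.2, 47.9 and 38.1, without overlap (1.99 ± 0.17, adjusted p = 4.60e-18), but DESeq2 did not call it (2.46 ± 0.84, adjusted p = 0.159), nor was it called with Il21 required (2.28, adjusted p = 0.207). Sh2d1a stood at 513, 455 and 504 CPM against 309, 388 and 394, also without overlap (0.41 ± 0.10, adjusted p = 0.00648), and it did not pass without replicate 1 or 2 (0.28 and 0.52), by DESeq2 (0.42, adjusted p = 0.112) or with Il21 required (-0.011). Maf and Icos, by contrast, were measured at 463 ± 60.9 and 847 ± 23.9 CPM (SD, n = 3) in the PD-1+ rest and at 373 ± 43.9 and 701 ± 89.9 CPM in the gate, and neither was called.

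Ccr2 and Cxcr6, receptors of T cells in inflamed tissue, were lower in the gate. Of the peripheral helper and homing list 5 of 9 measured members were lower, 4 were not called and none was higher, with a median of -1.0. CCR2 draws effector cells to inflamed sites. Ccr2 stood at 13.2, 24.4 and 22.6 CPM in the gate and 65.5, 70.1 and 72.9 CPM in the PD-1+ rest, without overlap (-1.70 ± 0.21, adjusted p = 3.43e-10). Cxcr6, a tissue residency receptor, stood at 94.6, 157 and 113 CPM against 237, 376 and 382 (-1.48 ± 0.12, adjusted p = 2.66e-19). The gate lay below the PD-1+ rest in every library for both, and both calls stood without each library. They did not stand in every gate: with Il21 required Ccr2 was at -0.79 and Cxcr6 at -0.58, with Il21 or Cxcr5 required Cxcr6 was at -0.79, and under the cell filter of the study Ccr2 was at -0.90, none of them called.

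The integrin chain Itga4 and Prdm1, which encodes the Bcl6 antagonist Blimp-1, had -0.57 ± 0.12 and -1.01 ± 0.22. Itga4 did not pass without replicate 2 (-0.42), nor Prdm1 without replicate 2 or 3 (-0.84 and -0.99). Under the cell filter of the study Itga4 was at -0.18 and Prdm1 at -0.90, in cells of 2000 to 6000 UMIs they were at -0.11 and -0.98, and neither was called, nor was Itga4 by DESeq2. When the gate was limited to cells with Il21, Prdm1 turned to 1.55 ± 0.29 (adjusted p = 0.0361).

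Effector genes were lower more often than higher, 8 against 2 of 18. Ccl5 stood at 229, 901 and 726 CPM against 1943, 2240 and 1381, without overlap (-1.57 ± 0.11, adjusted p = 1.62e-22), but was not called by DESeq2 (-1.74, adjusted p = 0.159). Nkg7 had -1.34 ± 0.13 (adjusted p = 4.33e-15), Gzmb -2.68 ± 0.38 (adjusted p = 9.76e-08) and Il18r1 -0.93 ± 0.16 (adjusted p = 7.86e-06), and the edgeR calls of all 4 genes stood without each library. With Il21 required Nkg7 turned to 0.042 and Il18r1 was at -1.28, neither called. Runx3 and Id2, factors of cytotoxic and Th1 fate, had -0.61 and -0.46 and did not pass without replicate 2, where the values were nearly the same (-0.61 and -0.45), nor Id2 without replicate 3 (-0.42), under the cell filter of the study (-0.20) or in the depth window (-0.21). Ifng had 0.72 ± 0.20 (adjusted p = 0.0280), and it did not pass without replicate 1 or without replicate 2 (0.74 and 0.35).

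Of the lymph node retention, egress and memory list 1 of 14 members was higher, Tcf7, and 4 were lower, Il7r (-0.61), Selplg (-0.63), Klf2 (-0.51) and S1pr1 (-0.40). None of the 4 passed without replicate 2 (-0.55, -0.61, -0.59 and -0.35) or under the cell filter of the study (-0.53, -0.54, -0.35 and -0.26). Tcf7 encodes the stem-like and follicular factor TCF-1. It stood at 249, 164 and 130 CPM against 129, 129 and 91.4, without overlap, although replicate 3 of the gate lay next to the highest values of the PD-1+ rest (0.55 ± 0.13, adjusted p = 0.00274; 0.42 and not called without replicate 1). It was not called by DESeq2 (0.58, adjusted p = 0.204), under the cell filter of the study (0.31, adjusted p = 0.825) or in cells of 2000 to 6000 UMIs (0.40, adjusted p = 0.449). The exhaustion-linked receptors Lag3 and Havcr2, which encodes TIM-3, and the ectonucleotidase Entpd1 were lower (-0.83 ± 0.14, -0.90 ± 0.18 and -1.58 ± 0.26). None of the last 3 passed without replicate 2 (-0.54, -0.86 and -1.25), and Havcr2 also not without replicate 3 (-0.70). With Il21 required all 3 turned direction and were not called (0.94, 0.82 and 0.11), and Entpd1 was not called under the cell filter of the study (-0.83). Xcl1 had the largest rise among the genes chosen by size (2.63 ± 0.39, adjusted p = 3.53e-07), with 91 UMIs in 17 gate cells and 35 of them in 1 cell. It stood at 161, 4.88 and 8.46 CPM against 14.3, 0 and 4.40, overlapping, and 73 of its gate UMIs came from replicate 1. Ccl4 was called at a larger fold change without one direction in every library (4.54 ± 0.28, adjusted p = 6.91e-27). It stood at 2.20, 771 and 75.4 CPM against 22.5, 7.87 and 10.3, overlapping, and 914 of its 1055 gate UMIs lay in 1 cell. DESeq2 did not call it (2.62, adjusted p = 0.999).

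**Figure D3:**
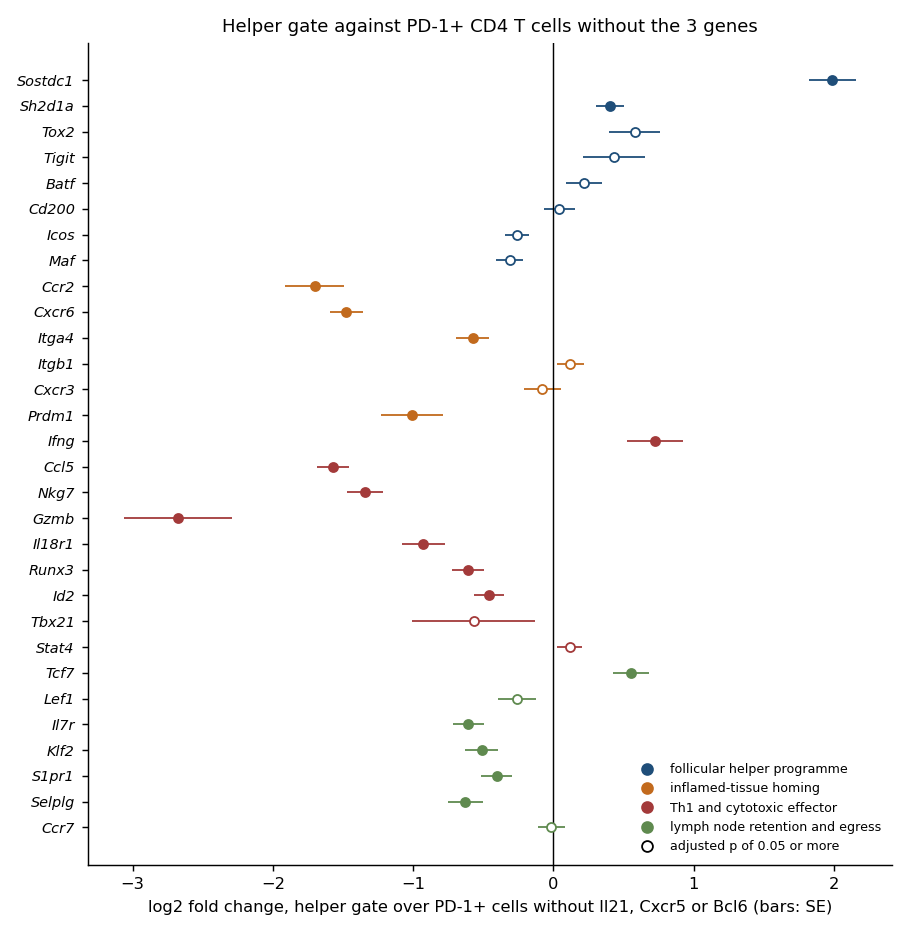
Log2 fold change (x axis, bars are the SE) of the helper gate over PD-1+ cells without Il21, Cxcr5 or Bcl6 for genes of 4 lists, 3 libraries in each set; filled points passed an adjusted p under 0.05. Of the genes drawn, Sostdc1 is farthest to the right at 1.99, and the homing and cytotoxic genes Ccr2, Cxcr6, Ccl5 and Gzmb lie to the left.

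Genes of antigen presentation moved with this comparison, and few cells carried them. Of the 7 measured B-cell list members, 5 were higher in the gate than in the PD-1+ rest: Cd74, H2-Aa, H2-Eb1, H2-Ab1 and Ighm. H2-Aa stood at 671, 107 and 379 CPM against 113, 58.7 and 369, overlapping (0.90 ± 0.15, adjusted p = 8.28e-06), and it did not pass without replicate 1 (0.25) or without replicate 2 (1.01). The 18 genes of the list summed to 2919, 617 and 2123 CPM in the gate and 689, 423 and 1912 in the PD-1+ rest, with Cd74 the most abundant. The defining B-cell gene Ms4a1 had 2 UMIs in the gate. In the gate 9 cells (3, 1 and 5 by replicate) held 92.8% of the 2668 UMIs of H2-Aa, H2-Ab1 and H2-Eb1, at a median depth of 19364 UMIs.

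Without cells holding 5 or more of these UMIs in either set, H2-Aa was at -0.33 (adjusted p = 0.762), while 195 genes were called, 157 of them among the 177. Myeloid list genes rose in 2 of 5 measured cases (Tyrobp and Fcer1g), with sums of 746, 268 and 606 CPM against 360.0, 328 and 496 and Cst3 the most abundant. The macrophage gene Csf1r had 3 UMIs in the gate.

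Cells with Cxcr5 were compared with the other gate cells, 63 against 341 (11, 21 and 31 against 59, 121 and 161 by replicate). The Cxcr5+ cells were deeper, at medians of 5427, 10906 and 6808 UMIs against 4381, 6758 and 5848, and the part of depth in this split was not tested. This split uses a gene of the rule. A cell without Cxcr5 had to hold Il21 or Bcl6, whereas a cell with Cxcr5 needed neither. How far that selection sets the differences was not tested. Of 3931 genes tested 9 (0.229%) passed, 7 (0.178%) higher and 2 (0.0509%) lower in the Cxcr5+ cells. No B-cell marker was called, with a median log2 fold change of 0.99 over 6 tested against 0.02 over all genes. Their 18 genes summed to 4110, 1761 and 1332 CPM against 2480, 320.0 and 2292, with Cd74 the most abundant and Ms4a1 among the 6 at 0 in the Cxcr5+ cells, and H2-Aa lay in 23.8% of Cxcr5+ and 14.7% of Cxcr5- cells. Gpr183, which encodes EBI2, a receptor that positions lymphocytes at the edge of the follicle, stood at 114, 257 and 164 CPM against 45.2, 80.0 and 75.3, without overlap (1.44 ± 0.25, adjusted p = 0.0111). Without cells holding 5 or more MHC class II UMIs it was at 1.04 and was not called (adjusted p = 0.106). Tcf7 stood at 515, 241 and 212 CPM against 151, 145 and 113, without overlap (1.16 ± 0.24, adjusted p = 0.0287). Havcr2 stood at 8.17, 0 and 4.0 CPM against 72.2, 54.4 and 35.1, without overlap (adjusted p = 0.0111). Its UMIs numbered 2 in the Cxcr5+ cells and 118 in the others, a ratio of rates of 0.0671 with an exact 95% counting interval of 0.00803 to 0.248. The Il21+ cells of the gate, compared below, held 48 of its 120 Havcr2 UMIs.

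Malat1, an abundant nuclear RNA, was the other gene that was lower, at 10508, 20096 and 29360 CPM against 26333, 30969.5 and 31654 (-0.63 ± 0.11, adjusted p = 0.0111). Replicate 1 differed most, and without it the gene was at -0.33 and was not called. Its part in the other calls was not tested. Stmn1, Mcm7 and Dut, genes of dividing cells, were also higher, at 637, 103 and 12 CPM against 238, 23.6 and 10.3 for Stmn1, where replicate 1 was the highest. Of 6 measured cell-cycle genes 1 was higher. None of the 17 measured follicular list genes passed, and their median was -0.19. Gpr183 and Tcf7 were the 2 lymph node list genes called of 12, both higher, while the median of that list was -0.45. The calls did not all stand without each library: without replicate 1, Gpr183 (1.45), Tcf7 (0.85), Havcr2 (-4.32), Stmn1 (1.63), Mcm7 (1.52) and Dut (0.99) kept their sign and did not pass, and without replicate 2 all of them except Tcf7 did not pass (1.21, -3.05, 1.25, 1.62 and 1.20). DESeq2 called none of these 6 genes. Its log2 fold changes were 1.44, 1.17, -3.89, 1.54, 1.69 and 1.21, in the order of the values without replicate 1.

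The 46 cells with Il21 stood apart from the other 358 more than the Cxcr5+ cells did in number of calls, though the 2 splits were not tested against each other. The cells numbered 11, 19 and 16 against 59, 123 and 176 by replicate. Of 3540 genes tested 61 (1.72%) passed, 32 (0.904%) higher and 29 (0.819%) lower in the Il21+ cells. Ifng stood at 304, 557 and 236 CPM against 22.7, 3.71 and 16.1, without overlap (4.84 ± 0.42, adjusted p = 3.99e-06). Of the 174 Ifng UMIs in the gate, 141 lay in Il21+ cells, spread over 18 of the 46 cells, with 59 in the highest.

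Prdm1 stood at 118, 139 and 173 CPM against 8.51, 6.50 and 10.7, without overlap (4.07 ± 0.41, adjusted p = 1.79e-05), and 13 of the 46 Il21+ cells held 52 of its 76 gate UMIs. The inhibitory receptor Lag3 stood at 216, 431 and 209 CPM against 51.0, 53.8 and 68.0, without overlap (2.31 ± 0.28, adjusted p = 0.000219). Ifng, Prdm1 and Lag3 kept their calls without each library in turn. The split uses a gene of the rule: a cell without Il21 had to hold Bcl6 or Cxcr5, whereas a cell with Il21 needed neither, and 10 of the 46 held Bcl6. How far that selection sets the differences was not tested.

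Of the follicular list 2 of 18 members were higher in the Il21+ cells (Cd200 and Angptl2) and none lower. Of the Th1 and cytotoxic list 4 of 12 were higher (Ifng, Nkg7, Ccl4 and Id2) and 1 lower (Ccl5, -1.55). Inhibitory receptors gave 4 higher and none lower of 8 (Lag3, Havcr2, Cd200 and Ctla4), antigen receptor genes 4 of 12 (Lag3, Nr4a1, Nfkbia and Nr4a2), and the lymph node list 4 lower and none higher of 11 (Satb1, S1pr1, Klf3 and Lef1). None passed of 13 anergy-linked, 11 costimulatory, 4 SLAM family, 16 cytokine receptor, 14 interferon response and 6 cell-cycle genes. Havcr2 had 2.18 ± 0.38 and Nr4a1 1.71 ± 0.32, while the activation antigen Ly6a had -2.21 ± 0.35. Lrrc32 was lower (adjusted p = 0.0366), with 3 UMIs against 163, a ratio of rates of 0.139 with an exact 95% counting interval of 0.0284 to 0.413. Havcr2, Cd200, Ctla4, Id2, Nkg7, Lrrc32 and S1pr1 did not pass without replicate 2 (1.59, 0.99, 0.89, 0.76, 0.96, -2.67 and -1.16). Lrrc32 (-2.35) and Lef1 (-1.27) did not pass without replicate 1, nor Lef1 (-1.38) and Angptl2 (2.24) without replicate 3. DESeq2 did not call Lef1 (-1.67), S1pr1 (-1.37), Ccl5 (-1.80) or Ccl4 (5.37). Ccl4 had 5.91 ± 1.13, of which the single cell with 914 UMIs is part.

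**Figure D4:**
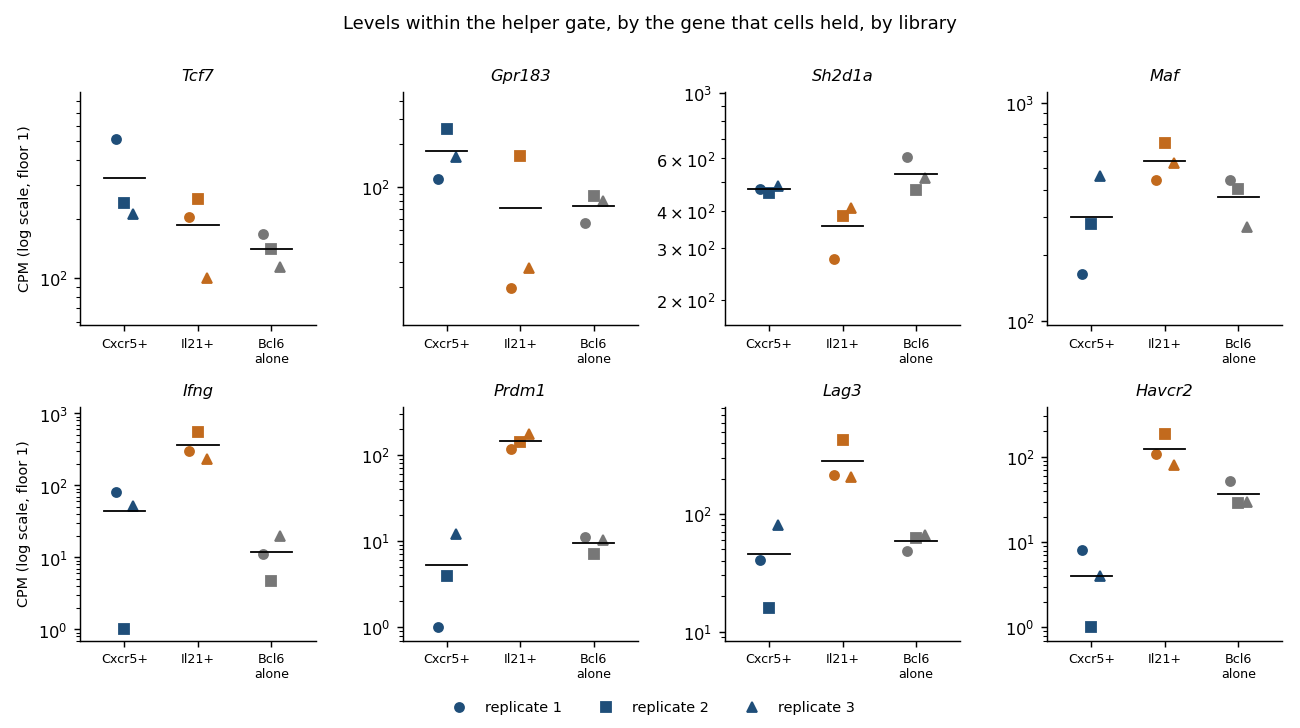
Level (CPM, log axis, values under 1 drawn at 1) of 8 genes in gate cells with Cxcr5, with Il21, and with Bcl6 alone, each symbol 1 of the 3 libraries and the bar their mean; 6 cells with both Cxcr5 and Il21 are in the first 2 sets. Ifng, Prdm1 and Lag3 are highest in the Il21+ cells of every library, and Tcf7 is highest in the Cxcr5+ cells of replicates 1 and 3.

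The gate was then set beside 467 Foxp3- CD4 T cells with Nt5e and Izumo1r and without Eomes, chosen without regard to Pdcd1, Il21, Cxcr5 or Bcl6. The 2 genes encode CD73 and folate receptor 4 and mark anergic CD4 T cells. Of 7721 genes tested 35 (0.453%) passed, 22 (0.285%) higher and 13 (0.168%) lower in the gate. Of the calls 62.9% were higher, against 73.5% with plain library sizes. None of the 13 measured anergy-linked genes passed. Of 22 measured follicular list genes 2 were higher, Sostdc1 and Batf, and 1 was lower, Tnfsf8, with a median log2 fold change of -0.007. Sh2d1a, Tox2, Maf, Cd200 and Tigit were not called. Gzmk, a granzyme, stood at 41.8, 85.5 and 91.7 CPM against 15.1, 26 and 14.7, without overlap (2.02 ± 0.21, adjusted p = 1.68e-06), and Sostdc1 at 242, 137 and 126 CPM against 37.1, 62.2 and 55.0 (1.48 ± 0.18, adjusted p = 3.34e-05; 0.198 by DESeq2). Ccr7 and Tnfsf8, which encodes CD30 ligand, were lower (-0.62 ± 0.08 and -0.67 ± 0.10). With Il21 required they were at -0.33 and -0.033, and with Il21 or Cxcr5 required at -0.67 and -0.49, none of them called.

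Batf and Gpr183 were higher in this comparison (0.72 and 1.05), but Batf did not pass without replicate 3 (0.52) nor Gpr183 without replicate 2 (0.53). Neither passed by DESeq2 (0.71 and 1.10) or under the cell filter of the study (0.58 and 1.03). Of the B-cell list 4 of 6 were higher, H2-Aa by 1.23 ± 0.11 and H2-Eb1 by 1.28 ± 0.14. Without the cells holding 5 or more MHC class II UMIs these were at 0.15 and 0.03, and Plac8 went from 1.22 to 0.10, none of them called. The sums of this list were 3333.5, 435 and 907 CPM in the Nt5e+Izumo1r+ cells.

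Against the 693 Foxp3+ CD4 T cells, 515 of 7956 genes (6.47%) passed, 224 (2.82%) higher and 291 (3.66%) lower in the gate. Of 13 measured regulatory genes 12 were lower and none higher. Of 13 mitochondrial genes 7 were higher and none lower, with a median of 0.32, and of 15 cell-cycle genes 7 were lower and none higher, among them Mki67, Top2a and Cdk1. The part of RNA quality and cell division in this comparison was not tested. Ikzf2 stood at 398, 339 and 307 CPM against 1181, 1112 and 1022, without overlap (-1.68 ± 0.10, adjusted p = 1.87e-08), and Ctla4 had -0.95 ± 0.11 (adjusted p = 2.99e-05). With Il21 required Ctla4 was at -0.030 and was not called. Ikzf2 in the gate thus lay above the other Foxp3- CD4 T cells and below the Foxp3+ cells, while it was not called against the PD-1+ rest or the Nt5e+Izumo1r+ cells. Itgae, the integrin CD103, had the largest fall at 11, 3.26 and 1.41 CPM against 77.3, 71.9 and 49.4 (-4.09 ± 0.32, adjusted p = 4.37e-07).

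Helper genes were higher in the gate than in the Foxp3+ cells for 8 of 22 members of the follicular list. The 3 lower members, Izumo1r, Maf and Icos, were all among the helper markers used to check the label. Sostdc1 had 0, 11.9 and 0.878 CPM in the Foxp3+ cells, 7 cells in all (5.03 ± 0.39, adjusted p = 4.37e-07). Ifng stood at 85.8, 71.6 and 33.1 CPM against 12.1, 13.7 and 5.85, without overlap (2.52 ± 0.21, adjusted p = 8.87e-07). Tnfsf8, Tox2 and Cd40lg, the ligand through which helper cells activate B cells, had 1.14, 1.45 and 1.69, and Cd40lg did not pass without replicate 3 (1.98). Icos stood at 870, 965 and 870 CPM in the Foxp3+ cells and was lower in the gate (-0.36 ± 0.10, adjusted p = 0.0358; -0.32 and -0.28, not called, without replicate 1 or 2).

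The transcripts of the rule also occurred in Foxp3+ cells. Of 693 cells, 177 held Pdcd1 and at least 1 of the 3 genes, 12 in replicate 1, 71 in replicate 2 and 94 in replicate 3. Their share was 9.68%, 30.5% and 28.0% by replicate, and replicate 1 stood below the exact 95% intervals of the other libraries. Il21 was found in 2 of these 177 cells.

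**Figure D5:**
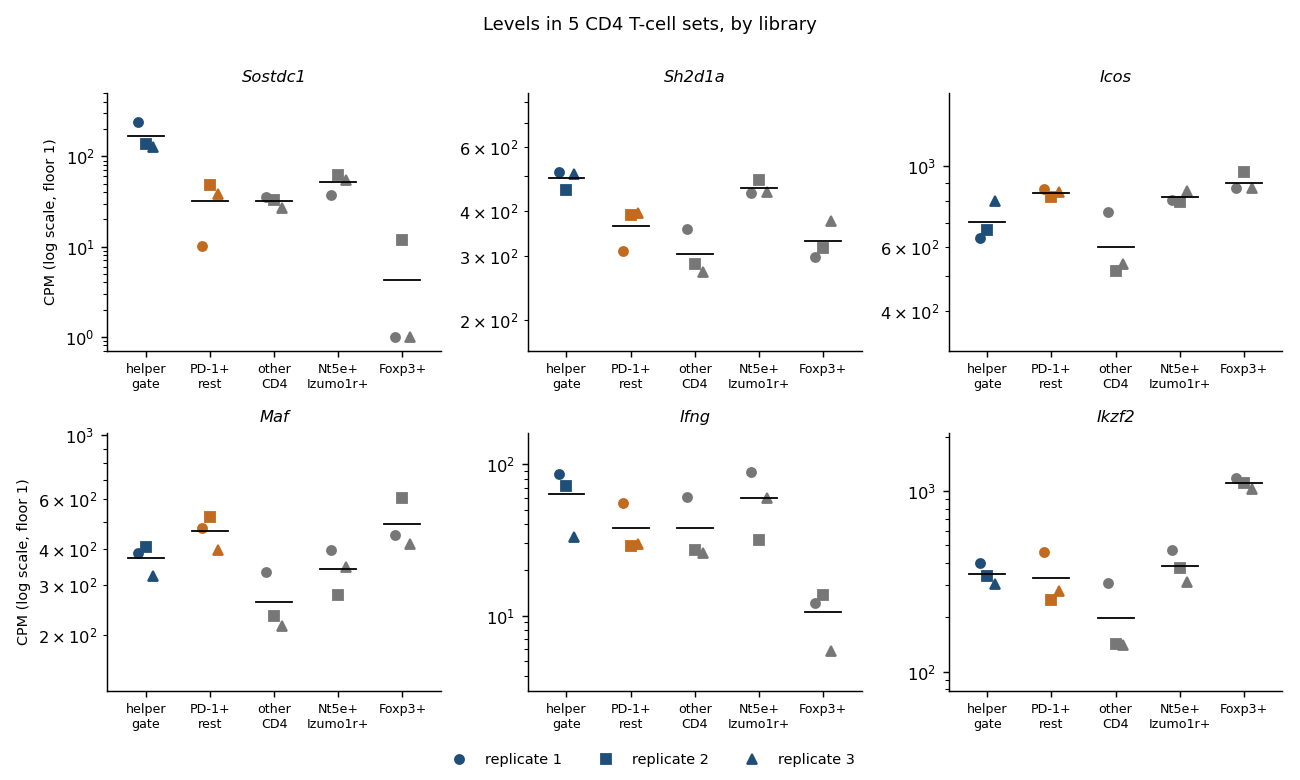
Level (CPM, log axis, values under 1 drawn at 1) of 6 genes in the helper gate, the PD-1+ cells without the 3 genes, the other Foxp3- CD4 T cells, the Nt5e+Izumo1r+ cells and the Foxp3+ cells; each symbol is 1 of the 3 libraries and the bar their mean. Sostdc1 is highest in the gate of every library, and Ikzf2 is highest in the Foxp3+ cells.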

How the data were processed

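Cells were live CD45+ leukocytes sorted from dispersed NOD islets and sequenced as 3 droplet libraries. The authors deposited raw UMI counts per gene and cell barcode, made with Cell Ranger 6.0.1 on mm10 per the submitters' processing notes. Cells with at least 1000 UMIs and under 10% mitochondrial UMIs were kept. The members and gene lists were chosen with earlier results of these data known. Counts were summed by library and set, and the 14 genes of the rule were left out of tests. The sums were compared with edgeR 4.0.16 in R 4.3.3 (quasi-likelihood test, TMM, low counts filtered, library as a block, Benjamini-Hochberg threshold 0.05). DESeq2 1.42.0 was an alternative. Sets of the same library deviated together in every comparison (r from 0.149 to 0.538), which pairs them. Named genes were the genes of the rule (described only), members of the lists, and the 10 (first comparison) or 5 (others) genes with the largest fold change in each direction among called genes that had at least 50 CPM in the higher set and one direction in every library. The study's cell filter, an alternative, kept cells with 200 to 5000 genes, up to 6000 UMIs, under 5% mitochondrial and at least 5% ribosomal UMIs. Some genes that the rule names are not reported here. No doublet caller was run. Alternatives instead removed cells with UMIs of other cell types or with 5 or more MHC class II UMIs. Per the study's methods the 3 libraries came from 2 independent experiments, so 2 of them share one. The sources do not say which, although the labels' descriptions set replicate 2 apart. No term for experiment was fitted, so p-values hold no measure of the spread between experiments. Nor are the edgeR p-values and SEs a direct measure of the spread between these 3 libraries. Against the PD-1+ rest, Sostdc1 had an SE of 0.17 by edgeR and 0.84 by DESeq2. Ccl4 was called there by edgeR although it was lower in the gate of replicate 1. Very small values are therefore to be read beside the CPM of each library.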

Additional observations from a re-analysis of the deposited data

How the results depend on the processing

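The counts of called genes depended on tool, gate and cell filter, and the causes were not tested. Beside the reported 478 (other cells), 177 (PD-1+ rest), 9 (Cxcr5 split), 35 (Nt5e+Izumo1r+ cells), 515 (Foxp3+ cells) and 61 (Il21 split), DESeq2 called 195, 26, 1, 8, 212 and 22. With Il21 in every helper cell, 192, 16 and 133 genes were called against the other cells, the PD-1+ rest and the Foxp3+ cells. With Il21 or Cxcr5 in every helper cell, chosen after seeing the data, 127, 42, 9 and 200 were called against the other, PD-1+, Nt5e+Izumo1r+ and Foxp3+ cells. The study's cell filter gave 269, 51, 23 and 278 in the same order, and cells of 2000 to 6000 UMIs gave 110, 22 and 322 in the last 3. The comparator without Nt5e or Eomes gave 848. With no filter on low counts the Cxcr5 split, the Nt5e+Izumo1r+ comparison and the Il21 split gave 59, 132 and 96. The Cxcr5 split called 29 without UMIs of other cell types, a fit that also dropped replicate 1, where 9 Cxcr5+ cells were left, so the 2 changes cannot be told apart. It called 14 without MHC class II cells, an alternative chosen after seeing the data. It was not run with the study's filter or the depth window, which left too few cells. All alternatives of the Il21 split were also chosen after seeing the data.

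Without the replicate block, which ignores that both sets come from 1 library, 0, 0, 0, 0, 46 and 3 genes were called in the same order as the reported counts, and 602, 317, 190 and 188 genes had an unadjusted p under 0.05 in the first 4. Leaving out each replicate gave 174 to 541, 58 to 131, 4 to 50, 50 to 114, 217 to 668 and 41 to 120.

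The gate's share of 7.29% became 5.52% under the study's cell filter, 3.25% with 2 UMIs of the 3 genes, 0.925% with Il21 required, 1.92% with Il21 or Cxcr5 required and 3.96% in thinned cells. Requiring Il21 reversed log2 fold changes against the other cells for Lrrc32 (-1.51), Rnaset2b (-0.17), Cxcr4 (-0.051), Il6ra (0.026) and Nkg7 (0.83), against the PD-1+ rest for Nkg7 (0.042), Sh2d1a (-0.011), Prdm1 (1.55), Id2 (0.49), Entpd1 (0.11), Lag3 (0.94) and Havcr2 (0.82), and against the Nt5e+Izumo1r+ cells for Timp2 (0.19). Requiring Il21 or Cxcr5 reversed Lrrc32 (-0.14), Icos (-0.063) and, against the PD-1+ rest, Prdm1 (0.33). Nkg7 turned to 0.21 with the stricter comparator. Against the PD-1+ rest H2-Aa turned to -2.04 under the study's filter, -1.59 in the depth window and -0.33 without MHC class II cells. In the Il21 split in place of the Cxcr5 split, Gpr183 was at -0.35 and Havcr2 at 2.18. Of the named single-gene results that could be refitted, 46 of 125 kept their direction and lost their call by DESeq2, and 0 turned direction. Under the study's filter 31 of 105 lost their call in this way and 1 turned, and in the depth window 23 of 107 and 1. With Il21 required 54 of 111 lost their call in this way, a further 13 turned direction and 44 stood.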
